A study of Drosophila melanogaster and Drosophila simulans and Drosophila yakuba with 8 samples.

Results

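The 8 genes described here drive the division cycle: the cyclin genes CycA, CycB3, CycD and CycE, the kinase genes Cdk1 and Cdk2, the phosphatase gene stg (string), and fzy (fizzy), an activator of the anaphase-promoting complex. They were chosen by name, and all 8 were found by FlyBase identifier among the 15178 genes listed for the D. melanogaster testis libraries. The rule used names and no expression values, but the genes and the lists below were chosen with earlier results of these data known. In the BDGP6 annotation (Ensembl release 115) CycE (FBgn0010382), Cdk1 (FBgn0004106) and fzy (FBgn0001086) lie on arm 2L, CycA (FBgn0000404) on 3L, CycB3 (FBgn0015625), Cdk2 (FBgn0004107) and stg (FBgn0003525) on 3R, and CycD (FBgn0010315) on the X chromosome. Their levels were compared in testes in which Zeus or Caf40 had been knocked down and in wildtype testes.

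The Zeus knockdown (genotype nosGal4>>UAS-Zeus-RNAi) and the Caf40 knockdown (nosGal4>>UAS-Caf40-RNAi) were each represented by 2 libraries, as was wildtype, 6 libraries in all. Every library was made from messenger RNA of dissected testes of adults aged 1 to 7 days, and all 6 carry the strain label Oregon-R. The nos promoter drives Gal4 in germ cells, so the RNA interference constructs were aimed at the germline, while the RNA came from whole testes that also hold hub, cyst and sheath cells. Flies carrying the driver without a construct were not analysed here, so effects of driver and construct cannot be told apart from the knockdown. Caf40, now annotated as Rcd-1, belongs to the CCR4-NOT deadenylase complex, and Zeus is its retrotransposed copy Rcd-1r. The D. simulans and D. yakuba libraries of the series, 1 each, were not used.

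Cyclin-dependent kinases act only when bound to a cyclin, and successive cyclins are made and destroyed as a cell passes through the cycle. CycD and CycE act before and at entry into DNA replication, CycA and CycB3 before and during division, and the Stg phosphatase removes the inhibitory phosphates that hold Cdk1 in check. Fzy then directs the anaphase-promoting complex to the mitotic cyclins, whose destruction ends mitosis. In the fly testis the germline stem cells and the spermatogonia divide mitotically, whereas spermatocytes grow through a long G2 phase before meiosis, in which the other Cdc25-type phosphatase, Twine, takes the place of Stg.

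Reads assigned to genes ranged from 12662615 to 24429722 per library, and for a gene of 1 kb a count of 3 equalled 0.120 to 0.232 RPKM (mapped reads scaled by the listed exon length and by the library's total). Each knockdown library had less RNA of its own target. Rcd-1r measured 4.05 and 4.04 RPKM in Zeus knockdown testes against 22.2 and 26.4 RPKM in wildtype, and Rcd-1 25.7 and 23.3 RPKM in Caf40 knockdown testes against 98.2 and 95.1 RPKM in wildtype. Rcd-1r stood at 135 and 114 RPKM in Caf40 knockdown testes. Nothing in the labels says that the replicates came from different flies, so the p-values reflect only sample-to-sample spread, which may be technical.

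The libraries also differed in markers of the cell types a testis holds. The summed level of the early germ cell markers, 6 of 8 listed being in the files, was 79.4 and 79.2 RPKM in Zeus knockdown testes, 223 and 186 RPKM in Caf40 knockdown testes, and 112 and 115 RPKM in wildtype. Among them bam, which ends the spermatogonial divisions, measured 2.17 and 2.24 RPKM in Zeus knockdown testes, 41.0 and 32.1 RPKM in Caf40 knockdown testes, and 3.41 and 3.23 RPKM in wildtype. The 11 spermatocyte markers summed to 231 and 236 RPKM in Zeus knockdown testes, 155 and 152 RPKM in Caf40 knockdown testes, and 335 and 315 RPKM in wildtype. Relative to wildtype, the Caf40 knockdown libraries were thus higher in the early germ cell sum and lower in the spermatocyte sum, and the Zeus knockdown libraries were below wildtype in both sums. The early germ cell markers did not move as one in the Caf40 knockdown: bam, zpg and Stat92E rose, bgcn and chinmo fell, and tut was not called (3 higher and 2 lower of 6). Means of bgcn were 34.1 RPKM in Caf40 knockdown testes and 46.1 RPKM in wildtype, and those of zpg were 54.5 RPKM in Caf40 knockdown testes and 4.22 RPKM in wildtype. Of the 11 spermatocyte markers, 1 rose and 10 fell in the Caf40 knockdown. These counts are of genes called by the edgeR test given below, which called 41.9% of all genes tested higher and 38.6% lower there. The 9 hub and cyst cell markers summed to 52.2 to 52.5 RPKM in Zeus knockdown testes, 68.0 to 70.3 RPKM in Caf40 knockdown testes, and 53.0 to 56.2 RPKM in wildtype. They split in the Caf40 knockdown, with 5 called higher and 3 lower. Muscle sheath markers (6 of 8 in the files) summed to 40.3 to 50.2 RPKM in Zeus knockdown testes, 46.6 to 66.3 RPKM in Caf40 knockdown testes, and 34.6 to 36.2 RPKM in wildtype. Of the 5 sheath markers tested, 2 were called higher and 1 lower in the Caf40 knockdown. Accessory gland and duct markers (7 of 8) summed to 12.4 to 15.7 RPKM in Zeus knockdown testes, 2.72 to 3.64 RPKM in Caf40 knockdown testes, and 8.71 to 9.42 RPKM in wildtype, with Acp62F at 0 in both Caf40 knockdown libraries and Mst57Dc at 0 in the first. No other marker in the files was at 0 in a library. Not every accessory gland marker followed the sum: Acp26Aa averaged 1.26 RPKM in Zeus knockdown testes and 2.63 RPKM in wildtype. Median RPKM over the listed genes was 7.66 and 6.95 in Caf40 knockdown testes against 4.47 and 4.66 in wildtype. In Zeus knockdown testes the median was 3.71 and 3.74 RPKM. The summed levels are read against these medians. In bulk RNA of this kind, fewer cells of a type and less RNA per cell cannot be told apart, and the part that cell composition has in the differences given here was not tested.

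In the Caf40 knockdown 6 of the 8 genes rose and 2 fell relative to wildtype. The rise was steepest for Cdk2 (4.97-fold), CycD (4.38-fold) and stg (3.91-fold), smaller for Cdk1 (2.16-fold), CycE (1.68-fold) and CycA (1.46-fold), while CycB3 was 1.33-fold and fzy 1.24-fold lower. Genes were called by edgeR's quasi-likelihood test over 10223 genes with Benjamini-Hochberg adjustment at 0.05, in which 80.5% of the genes tested were called, 41.9% of those tested being higher and 38.6% lower. Being called is therefore no mark of these genes, and the count in each direction is read against those shares. The median log2 fold change was 0.93 over the 8 genes and 0.06 over all genes tested, and with libraries scaled to a common median RPKM it was 0.48 over the 8 genes and -0.38 over all genes. One of the 8, stg, passed the filter of a mean of 1 RPKM only through the Caf40 knockdown, so it had to be high there, and without it 5 of 7 genes were higher. The falls of CycB3 and fzy were not called when libraries were scaled by their totals, and the rise of CycA was not called when libraries were scaled to a common median.

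In the Zeus knockdown 2 of the 8 genes, Cdk1 and stg, fell relative to wildtype by edgeR. At an unadjusted p under 0.05 the count was also 2 lower and 0 higher. DESeq2's Wald test called 0 of the 8 and 27.7% of all genes. By edgeR 36.8% of all genes tested were called in this comparison, 16.8% higher and 20.0% lower, so 2 of 8 is close to the background. With the Caf40 knockdown left out of the fit and its spread estimate, 52.3% of all genes and again 2 of the 8 were called. The median log2 fold change was -0.10 over the 8 genes and -0.04 over all genes. Cdk1 was 1.27-fold and stg 1.75-fold lower, and both calls depended on single libraries. Neither was called when either Zeus knockdown library or wildtype replicate 1 was left out, and stg alone was called without wildtype replicate 2. Both knockdown comparisons use the same 2 wildtype libraries, so they are not independent of each other.

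**Figure D1:**
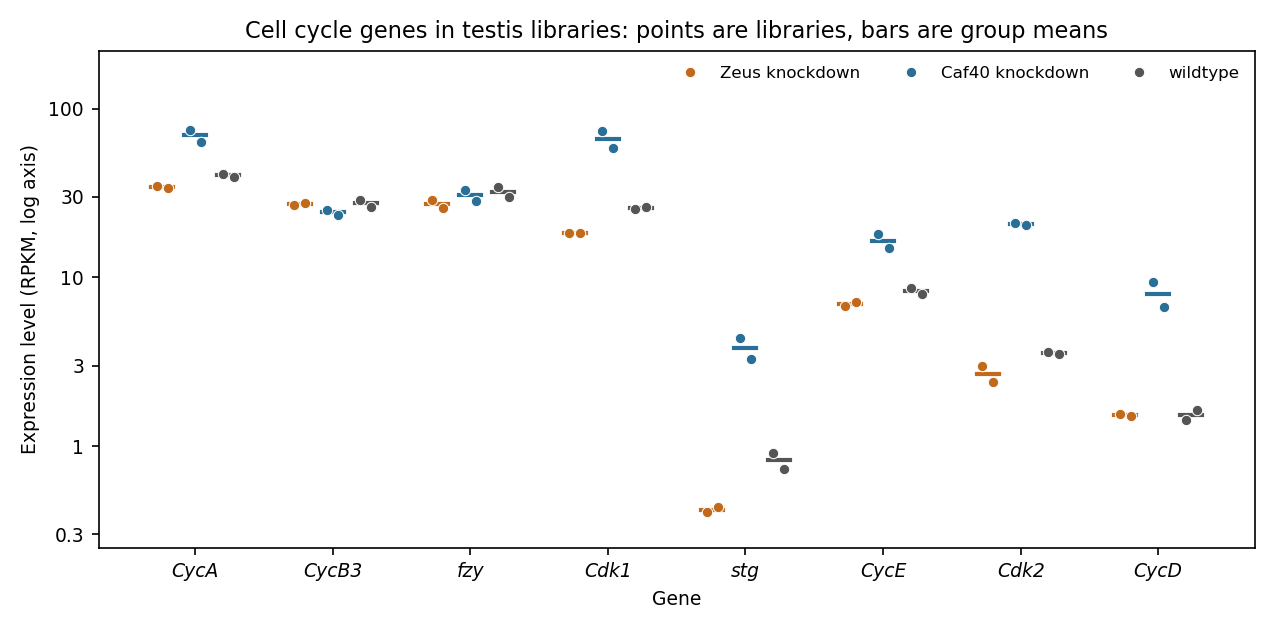
Level of each of the 8 genes in RPKM on a log axis, with 1 point per library and a bar at the mean of each group of 2. The Caf40 knockdown points of Cdk1, stg, CycE, Cdk2, CycD and CycA lie above all points of the other groups, whereas those of CycB3 lie slightly below and those of fzy overlap with the rest.

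Among the genes of the G1 and S phases, CycD encodes the cyclin that partners Cdk4 in growth and in G1 progression. It measured 1.55 and 1.50 RPKM in Zeus knockdown testes, 9.34 and 6.63 RPKM in Caf40 knockdown testes, and 1.43 and 1.65 RPKM in wildtype testes. Both Caf40 knockdown libraries were thus far above the rest, while the Zeus knockdown values lay inside the wildtype range. The log2 fold change was 2.13 in the Caf40 knockdown (SE 0.17, edgeR adjusted p = 3.68e-08, n = 2 per group) and 0.13 in the Zeus knockdown (95% interval -0.31 to 0.58, adjusted p = 0.643). CycD rested on 49 and 83 reads in Zeus knockdown testes, 302 and 300 in Caf40 knockdown testes and 88 and 94 in wildtype. Its partner Cdk4, singled out here after its values were seen, did not reach a mean of 1 RPKM and was not tested. It measured 0.346 and 0.216 RPKM in Zeus knockdown testes, 2.53 and 2.16 RPKM in Caf40 knockdown testes, and 0.243 and 0.297 RPKM in wildtype.

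CycE encodes the cyclin that activates Cdk2 at the start of DNA replication. It measured 6.73 and 7.16 RPKM in Zeus knockdown testes, 18.1 and 14.9 RPKM in Caf40 knockdown testes, and 8.66 and 7.99 RPKM in wildtype. No groups overlapped, with the Caf40 knockdown highest and the Zeus knockdown lowest on this scale. Its log2 fold change in the Caf40 knockdown was 0.75 (SE 0.09, edgeR adjusted p = 3.46e-06). Zeus knockdown testes gave -0.11 (95% interval -0.32 to 0.10, adjusted p = 0.394).

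Cdk2, the kinase of the CycE complex, had the largest fold change of the 8 genes in the Caf40 knockdown. It measured 2.98 and 2.40 RPKM in Zeus knockdown testes, 21.1 and 20.5 RPKM in Caf40 knockdown testes, and 3.59 and 3.53 RPKM in wildtype. The Caf40 knockdown libraries lay close to each other and well clear of the others, and the Zeus knockdown libraries were both slightly below wildtype. The log2 fold change was 2.31 in the Caf40 knockdown (SE 0.14, edgeR adjusted p = 2.05e-09) and -0.29 in the Zeus knockdown (95% interval -0.67 to 0.10, adjusted p = 0.228).

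In the BDGP6 annotation Cdk2 shares 1010 of its 2299 exon bases with CG17267 on the opposite strand. The authors' listed length of Cdk2 was 1220 bp, so their gene model differed, and whether counting used strand is not stated in the labels or files used here. Reads of Cdk2 and CG17267 therefore cannot be told apart where the models overlap. CG17267, looked at after the overlap was seen, averaged 5.94 RPKM in Zeus knockdown testes, 7.33 RPKM in Caf40 knockdown testes and 7.70 RPKM in wildtype, and its log2 fold change in the Caf40 knockdown was -0.31 (SE 0.16, edgeR adjusted p = 0.0886). Exon-junction reads, counted separately by the authors, numbered 7 and 10 on Cdk2 in the Zeus knockdown, 39 and 49 in Caf40 knockdown testes, and 16 and 10 in wildtype. These are small raw counts, not scaled for depth, and were highest in both Caf40 knockdown libraries. The part that reads of CG17267 have in the Cdk2 values was not tested. Smaller overlaps with genes on the opposite strand exist among the 8 genes: fzy shares 62 of 1996 exon bases with cact, and CycE 98 and 150 of 5047 with a pair of noncoding genes not analysed here.

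Of the genes of G2 and mitosis, Cdk1 encodes the kinase that drives entry into mitosis and meiosis. It measured 18.3 and 18.4 RPKM in Zeus knockdown testes, 73.3 and 58.3 RPKM in Caf40 knockdown testes, and 25.3 and 26.3 RPKM in wildtype. The groups did not overlap, and the Zeus knockdown and wildtype pairs were each tight. The log2 fold change was 1.11 in the Caf40 knockdown (SE 0.10, edgeR adjusted p = 6.7e-08). Zeus knockdown testes gave -0.34 (SE 0.10, adjusted p = 0.0206), a change that was no longer called without any one of the Zeus knockdown or wildtype libraries, where it lay between -0.36 and -0.31, nor with DESeq2's Wald test (-0.32) or scaling to a common median (-0.20).

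String, encoded by stg, activates Cdk1 and sets the timing of mitoses in the embryo and in growing tissues. It was the lowest of the 8 genes in every library, at 0.406 and 0.436 RPKM in Zeus knockdown testes, 4.35 and 3.31 RPKM in Caf40 knockdown testes, and 0.914 and 0.733 RPKM in wildtype. The read numbers behind these values were 16 and 30 in Zeus knockdown testes, 175 and 186 in Caf40 knockdown testes, and 70 and 52 in wildtype. The 3 groups stood apart in the order Caf40 knockdown, wildtype, Zeus knockdown. The log2 fold change was 1.97 in the Caf40 knockdown (SE 0.20, edgeR adjusted p = 4.1e-07) and -0.81 in the Zeus knockdown (SE 0.27, adjusted p = 0.0324). As stg passed the filter only through the Caf40 knockdown, a high value there was a condition of its being tested. The Zeus knockdown call was lost without either Zeus knockdown library (-0.77 and -0.87) or without wildtype replicate 1 (-0.63), with DESeq2's Wald test (-0.80), with limma on log2(RPKM + 1) (-0.36) and with scaling to a common median (-0.67).

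CycA, the cyclin required for mitosis in all dividing fly cells and present through S and G2, was the most abundant of the 8 transcripts. It measured 34.8 and 33.9 RPKM in Zeus knockdown testes, 75.0 and 63.5 RPKM in Caf40 knockdown testes, and 41.1 and 39.5 RPKM in wildtype. Both Caf40 knockdown libraries were above all others. The log2 fold change was 0.55 in the Caf40 knockdown (SE 0.09, edgeR adjusted p = 7.47e-05), and 0.10 and not called when libraries were scaled to a common median. The Zeus knockdown value was -0.08 (95% interval -0.29 to 0.12, adjusted p = 0.509).

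CycB3 encodes a B-type cyclin that acts in mitosis after CycA and in female meiosis. It measured 26.8 and 27.6 RPKM in Zeus knockdown testes, 25.1 and 23.5 RPKM in Caf40 knockdown testes, and 28.8 and 26.2 RPKM in wildtype. These are narrow differences, with the Caf40 knockdown just below the rest and the Zeus knockdown inside the wildtype range. Its log2 fold change in the Caf40 knockdown was -0.41 (SE 0.09, edgeR adjusted p = 0.000686). It shrank to -0.19 with scaling by library total and to -0.17 with limma on log2(RPKM + 1), both not called. The Zeus knockdown value was 0.13 (95% interval -0.06 to 0.32, adjusted p = 0.254).

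Fizzy, encoded by fzy and the counterpart of Cdc20 in other species, presents CycA and the B-type cyclins to the anaphase-promoting complex. It measured 28.6 and 25.9 RPKM in Zeus knockdown testes, 32.9 and 28.3 RPKM in Caf40 knockdown testes, and 34.4 and 29.9 RPKM in wildtype. The ranges of the Caf40 knockdown and wildtype overlapped. Its log2 fold change in the Caf40 knockdown was -0.31 (SE 0.10, edgeR adjusted p = 0.0111), and it was no longer called without wildtype replicate 1 (-0.19), with scaling by library total (-0.08) or with limma (-0.07). The Zeus knockdown value was -0.09 (95% interval -0.31 to 0.12, adjusted p = 0.483).

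**Figure D2:**
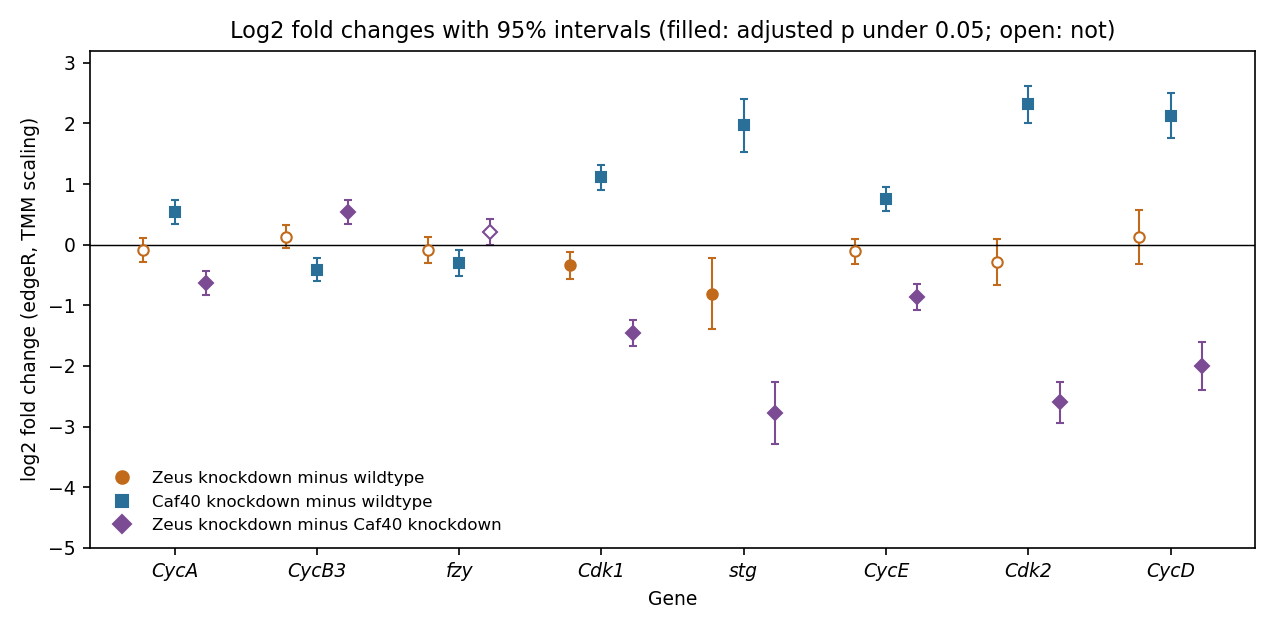
Log2 fold changes of the 8 genes with 95% intervals from edgeR in the 3 comparisons, filled where the adjusted p was under 0.05. In the Caf40 knockdown the changes run from -0.41 for CycB3 to 2.31 for Cdk2, and in the Zeus knockdown from -0.81 for stg to 0.13 for CycB3.

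The rank of a gene within its own library does not depend on how libraries are scaled. Cdk2 stood at the 68.5 and 69.1 percentile of the listed genes by RPKM in Caf40 knockdown testes against 47.0 and 46.4 in wildtype, and Cdk1 at 89.1 and 86.1 in Caf40 knockdown testes against 76.6 and 76.9 in wildtype. CycB3 stood at 72.1 and 72.2 in Caf40 knockdown testes against 78.2 and 76.9 in wildtype. By this measure 6 genes were higher and 2 lower in the Caf40 knockdown with no overlap between groups, where this held for 89.2% of all genes tested, 44.2% higher and 45.0% lower. Among the 6 was stg, which passed the filter only through the Caf40 knockdown. The directions were those of the fitted fold changes, including those of CycB3 and fzy. CycB3 and CycD were higher in rank (2 genes) and CycA, Cdk1 and stg lower (3 genes) without overlap in the Zeus knockdown, where this held for 72.0% of all genes, 34.4% higher and 37.6% lower. A rank also moves when other genes move, and for 1 gene the smallest p of an exact permutation test, 2 libraries against 2, is 0.333.

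**Figure D3:**
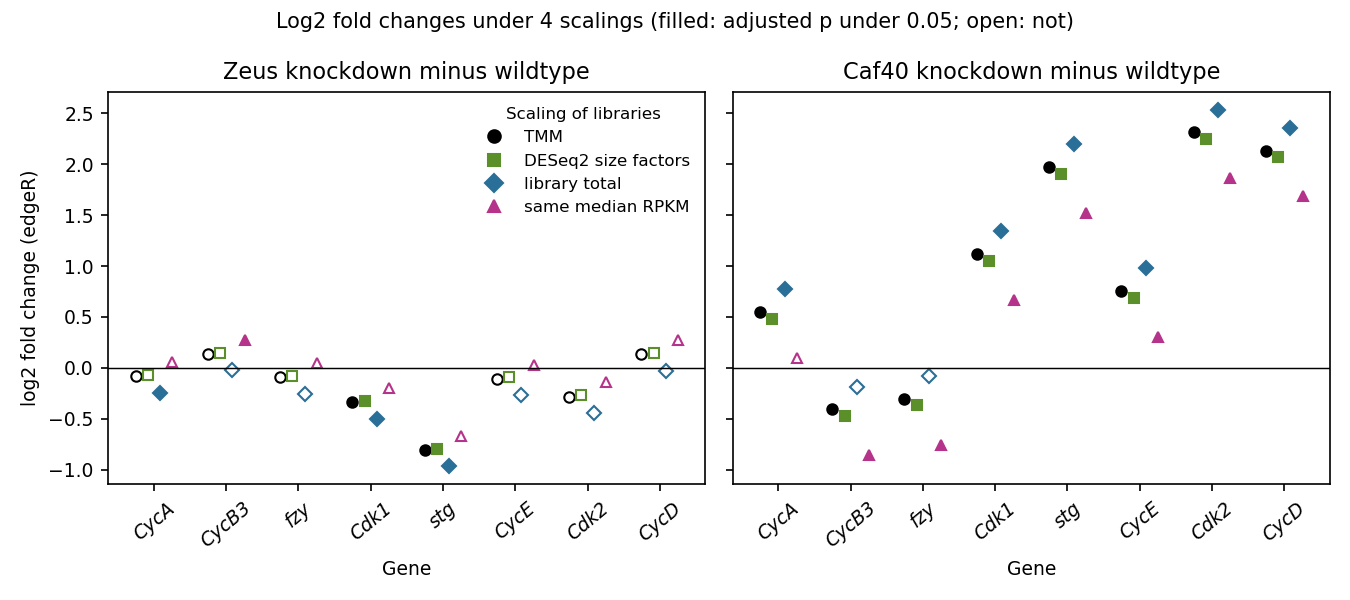
Log2 fold changes of the 8 genes against wildtype under 4 ways of scaling the libraries, filled where the adjusted p was under 0.05. In the Caf40 knockdown CycD, CycE, Cdk1, Cdk2 and stg are above 0 and filled under every scaling, while in the Zeus knockdown CycA, CycB3, CycD, CycE and fzy cross 0 from one scaling to another.

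The smaller changes depended on the scaling. Relative to the main analysis, scaling by library total moved the median log2 fold change of all genes by -0.16 for the Zeus knockdown and by 0.22 for the Caf40 knockdown. Scaling to a common median RPKM moved it by 0.14 for Zeus knockdown testes and by -0.45 for Caf40 knockdown testes. Under these settings Cdk2 lay between 1.87 and 2.53, CycD between 1.68 and 2.36 and Cdk1 between 0.67 and 1.34 in Caf40 knockdown testes. The higher share among all called genes in the Caf40 knockdown was 52.0% in the main analysis, 61.1% with library totals, 34.2% with a common median and 61.4% with limma. The Zeus knockdown gave 45.6% in the main analysis, 21.9% with library totals, 70.9% with a common median and 23.0% with limma. The limma fit used RPKM, which is scaled by library total, so it is not a separate scaling.

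The knockdowns differed from each other in 7 of the 8 genes. Relative to the Caf40 knockdown, the Zeus knockdown was lower in 6 of them and higher in CycB3, where 83.5% of all genes were called, 40.2% higher and 43.3% lower. Of the 6, stg passed the filter only through the Caf40 knockdown, so it had to be high there. The log2 difference was -2.78 for stg (SE 0.24, edgeR adjusted p = 5.67e-08), -2.60 for Cdk2 (SE 0.16, adjusted p = 1.61e-09) and -2.00 for CycD (SE 0.18, adjusted p = 1.09e-07). It was -1.45 for Cdk1, -0.86 for CycE, -0.63 for CycA and 0.54 for CycB3. The difference in CycA was not called with a common median (-0.04), and that in CycB3 was not called with library totals (0.16) or limma (0.16). For fzy the difference was 0.21 (95% interval -0.01 to 0.43, adjusted p = 0.0652), and its sign changed with library totals (-0.17) and limma (-0.16).

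The order of the 8 transcripts by RPKM changed in the Caf40 knockdown. Among Zeus knockdown values CycA was highest at 34.3 ± 0.63 RPKM (SD, n = 2), followed by fzy at 27.3 ± 1.91 and CycB3 at 27.2 ± 0.54, whose ranges overlapped, then Cdk1 at 18.4 ± 0.10, CycE, Cdk2, CycD and stg. Among Caf40 knockdown values CycA at 69.3 ± 8.10 RPKM and Cdk1 at 65.8 ± 10.6 RPKM came first with overlapping ranges, followed by fzy, CycB3, Cdk2 at 20.8 ± 0.44 RPKM, CycE at 16.5 ± 2.27 RPKM, CycD and stg. In wildtype the order was CycA at 40.3 ± 1.17 RPKM, fzy at 32.2 ± 3.19, CycB3 at 27.5 ± 1.85 and Cdk1 at 25.8 ± 0.66, the last pair with overlapping ranges, then CycE, Cdk2, CycD and stg. Cdk1 thus stood below CycB3 and fzy in the Zeus knockdown and above both in the Caf40 knockdown, and Cdk2 stood above CycE in the Caf40 knockdown alone among the 3 groups. The neighbours in each order not named as overlapping had separate ranges, with 2 libraries behind each. Over the 6 libraries, 131 of 1122 reads of Cdk2 were exon-junction reads, against 0 of 5669 for CycE. Reads of CG17267 may also count toward Cdk2. The part these have in the order of Cdk2 and CycE was not tested.

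Ratios within a library carry no scaling between libraries, but they reuse the RPKM values given above. The ratio of Cdk1 to Cdk2 was 6.14 and 7.68 in Zeus knockdown testes, 3.48 and 2.85 in Caf40 knockdown testes, and 7.05 and 7.45 in wildtype. CycA exceeded CycB3 1.30-fold and 1.23-fold in the Zeus knockdown, 2.99-fold and 2.70-fold in the Caf40 knockdown, and 1.43-fold and 1.51-fold in wildtype. The ratio of CycE to CycD was 4.35 and 4.77 in Zeus knockdown testes, 1.94 and 2.25 in Caf40 knockdown testes, and 6.06 and 4.85 in wildtype. In all of these the Caf40 knockdown libraries lay apart from the other groups. How often this holds for other pairs of genes was not tested. By rank, 89.2% of single genes tested also stood apart between the Caf40 knockdown and wildtype, so separation is no mark of these pairs. The ratio of Cdk1 to fzy was 0.639 and 0.711 in Zeus knockdown testes, 2.23 and 2.06 in Caf40 knockdown testes, and 0.736 and 0.878 in wildtype. The transcripts of the activating kinase and of the protein that ends its activity were in a different proportion in the Caf40 knockdown. The ratio of stg to Cdk1 was 0.0222 and 0.0237 in Zeus knockdown testes, 0.0594 and 0.0568 in Caf40 knockdown testes, and 0.0361 and 0.0279 in wildtype. As stg passed the filter only through the Caf40 knockdown, it had to be high there.

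**Figure D4:**
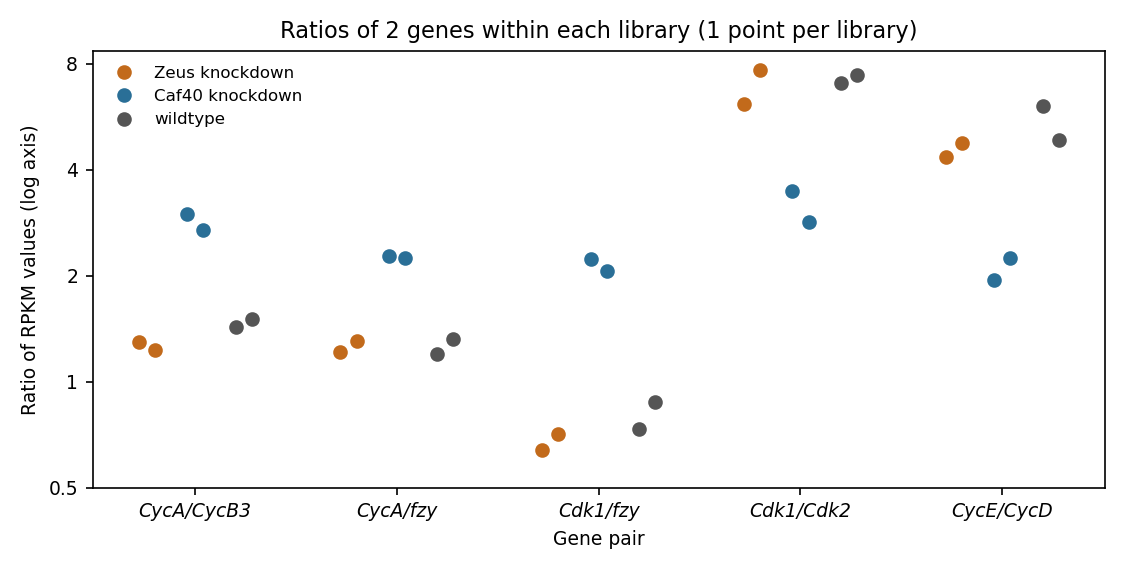
Ratio of RPKM values of 2 genes within each library, on a log axis, with 1 point per library. The Caf40 knockdown points lie above the others for CycA/CycB3, CycA/fzy and Cdk1/fzy and below them for Cdk1/Cdk2 and CycE/CycD.

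Exon-junction reads were counted unevenly among the 8 genes. CycA, CycE, Cdk1 and stg have introns in the BDGP6 annotation but had 0 junction reads among 13456, 5669, 4264 and 529 reads over the 6 libraries. Cdk2 had 131 junction reads of 1122 (11.7%), CycD 43 of 916 (4.69%) and fzy 179 of 7016 (2.55%), while CycB3 is annotated with a single exon. Pooled over the 2 libraries of a group, the share of CycD was 2 of 132 reads (1.52%) in the Zeus knockdown, 37 of 602 (6.15%) in the Caf40 knockdown and 4 of 182 (2.20%) in wildtype. By library the junction reads numbered 0 and 2, 15 and 22, and 3 and 1 in that order. A difference in share between the groups was not tested. Of these 8 genes Cdk2 and fzy lie on the plus strand. A fit to the reads on the genome alone, chosen after this was seen, left the calls of the 8 genes as they were in every comparison.

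Other cell cycle genes were taken from 6 lists. Their counts in the main analysis stand against the same shares of all genes. These were 41.9% higher and 38.6% lower in the Caf40 knockdown, and 16.8% higher and 20.0% lower in the Zeus knockdown. With a common median 80.9% of all genes were called in the Caf40 knockdown, and 34.2% of the called genes were higher. The counts given with a common median stand against those shares. Nothing particular to a list is read from its count. The median log2 fold change over all genes in the Caf40 knockdown was 0.06, or 0.28 with library totals and -0.38 with a common median. Of 8 other cyclins, 4 rose and 2 fell in the Caf40 knockdown (median log2 0.39, 0.61 with library totals and -0.06 with a common median, where 3 were higher and 4 lower). CycJ, a cyclin known from oogenesis and the early embryo, measured 16.9 and 10.7 RPKM in Caf40 knockdown testes against 2.34 and 2.44 RPKM in wildtype (log2 fold change 2.28), and CycY, the membrane-associated partner of Eip63E, 33.2 and 28.3 RPKM in Caf40 knockdown testes against 13.7 and 13.7 RPKM in wildtype (0.93). CycB, the main mitotic B-type cyclin, moved the other way, at 38.3 and 34.2 RPKM in Caf40 knockdown testes against 65.4 and 57.2 RPKM in wildtype (-0.99). Of these 8, 2 fell in the Zeus knockdown and the other 6 were not called. The falls were those of CycY (-0.30) and CycH (-0.35), the cyclin of the Cdk-activating kinase. Each of these calls was lost in at least 1 fit that left out a library.

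Of 6 other cyclin-dependent kinases tested, 5 rose and 1 fell in the Caf40 knockdown (median log2 0.71, and 0.26 with a common median, where 3 were higher and 1 lower). Cdk8 of the Mediator complex measured 14.4 and 12.3 RPKM in Caf40 knockdown testes against 2.46 and 2.14 RPKM in wildtype (2.30), and Cdk9, which releases paused RNA polymerase II, 36.8 and 34.0 RPKM in Caf40 knockdown testes against 13.7 and 16.0 RPKM in wildtype (1.02). Both act in transcription and not directly in the division cycle. Pitslre, a kinase with roles in RNA processing and growth, was higher as well (0.83). Cdk9 (-0.47) and Eip63E (-0.45) fell and Cdk5 rose (0.36) in the Zeus knockdown. The Cdk5 call was lost in 8 of 16 alternatives, among them the replicate number as a block, and the Cdk9 call in 2 of 16.

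Of 12 regulators and inhibitors of these kinases, 4 rose and 6 fell in the Caf40 knockdown (median log2 -0.20, 0.03 with library totals and -0.64 with a common median, where 2 were higher and 8 lower). The catalytic subunit of protein phosphatase 2A, mts, measured 204 and 179 RPKM in Caf40 knockdown testes against 49.2 and 52.0 RPKM in wildtype (log2 fold change 1.68). Twine is the meiotic relative of String, whose gene stg passed the filter only through the Caf40 knockdown. The Twine gene twe moved against stg, at 32.8 and 33.0 RPKM in Caf40 knockdown testes against 65.6 and 60.8 RPKM in wildtype (-1.17, SE 0.09, edgeR adjusted p = 3.57e-08). The translational regulator mei-P26, which limits spermatogonial divisions, was lower as well (-0.92). In Zeus knockdown testes 3 of the 12 fell and the other 9 were not called. Those that fell were trbl (-0.39), which promotes the breakdown of String, tws (-0.28), a regulatory subunit of protein phosphatase 2A, and Myt1 (-0.40), which places inhibitory phosphates on Cdk1.

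Of 14 genes of the anaphase-promoting complex and the securin pathway, 5 rose and 6 fell in the Caf40 knockdown (median log2 -0.04, 0.18 with library totals and -0.49 with a common median, where 2 were higher and 9 lower). The separase gene Sse measured 0.853 and 0.774 RPKM in Zeus knockdown testes, 11.7 and 9.82 RPKM in Caf40 knockdown testes, and 2.43 and 2.09 RPKM in wildtype. It rose in the Caf40 knockdown (2.01) and fell in the Zeus knockdown (-1.34, SE 0.21, edgeR adjusted p = 0.000238). The subunits of the complex itself went both ways in the Caf40 knockdown, with Cdc16 higher (1.10) and Cdc23 lower (-0.59). Of the 14, 2 rose in the Zeus knockdown, among them the subunit shtd (0.38), and 3 fell, among them thr (-0.32), a partner of separase.

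Of 10 mitotic kinases and spindle checkpoint genes, 5 rose and 5 fell in the Caf40 knockdown (median log2 -0.00, 0.22 with library totals and -0.45 with a common median, where 3 were higher and 5 lower). Bub3 of the spindle checkpoint measured 7.78 and 9.06 RPKM in Zeus knockdown testes, 80.1 and 62.1 RPKM in Caf40 knockdown testes, and 13.2 and 15.0 RPKM in wildtype. It was higher in the Caf40 knockdown (2.10), as was Mad1 (1.44), and SAK, the kinase of centriole duplication, was lower (-0.96). The checkpoint genes Bub1 (-0.59), Bub3 (-0.58) and Mad1 (-0.34) fell in the Zeus knockdown, and the other 7 genes were not called.

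Of 8 regulators of the G1-S transition, 5 rose and 2 fell in the Caf40 knockdown (median log2 1.03, and 0.58 with a common median, where 4 were higher and 3 lower), 1 of the 8 having passed the filter through a single group. E2f1, the activator of replication genes, measured 20.0 and 15.4 RPKM in Caf40 knockdown testes against 4.25 and 4.74 RPKM in wildtype (1.74). Its partner Dp measured 35.4 and 28.9 RPKM in Caf40 knockdown testes against 7.76 and 7.70 RPKM in wildtype (1.82), and SkpA, a subunit of the SCF ubiquitin ligase, 42.9 and 37.6 RPKM in Caf40 knockdown testes against 12.3 and 13.1 RPKM in wildtype (1.43). Dp alone of the 8 fell in the Zeus knockdown (-0.37). All 18 genes named from the lists for the Caf40 knockdown kept their calls under the alternatives that could be run on them. Of the 15 named for the Zeus knockdown, 3 (Bub1, Eip63E and Sse) did so, and 12 lost the call in at least 1 fit that left out a library.

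**Figure D5:**
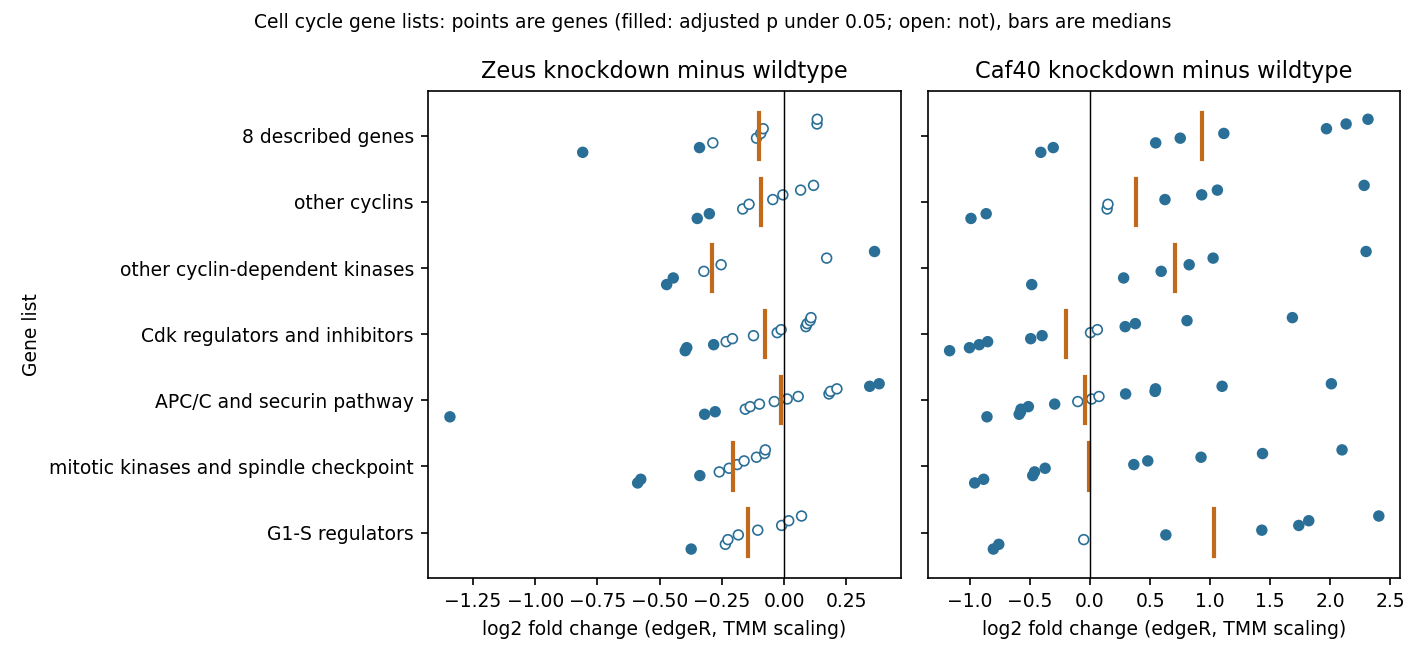
Log2 fold changes against wildtype of the 8 genes and of the tested genes of the 6 lists, with 1 point per gene, filled where the adjusted p was under 0.05, and a bar at each median. The medians in the Caf40 knockdown are 0.93 for the 8 genes, 1.03 for G1-S regulators and 0.71 for other cyclin-dependent kinases, and those of the other lists lie between -0.20 and 0.39.

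The genes whose pattern over the 6 libraries was most like that of each of the 8 were found by the Euclidean distance of log2(RPKM + 1) centred per gene. Nearest to Cdk2 were crq (distance 0.130) and Rrp46 (0.153), and nearest to CycD were Plp (0.122) and Nup37 (0.130). Cdk1 lay nearest to CG16974 and Fkbp12, CycA to CG8777 and Bap170, CycE to eIF2Bdelta and Sara, and stg to Brf and Cpsf6. The added 1 damps changes at low levels, so the neighbours of stg need not share its fold changes. Means of Brf were 3.35 RPKM in Zeus knockdown testes, 13.7 RPKM in Caf40 knockdown testes and 4.49 RPKM in wildtype. Those of stg were 0.421, 3.83 and 0.823 RPKM in that order. CycB3 lay nearest to CG13893 and CG10343, and fzy to CR18217 and Sld5. None of these genes was among the 8 genes or the 6 cell cycle lists.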

How the data were processed

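The deposited files hold, per the file headers, whole-number counts of genome and exon-junction reads for each gene, its exon length and an RPKM value. Alignment used Bowtie and the dm3 build, per the submitters' processing notes. The labels and headers used here give no aligner version, annotation release, strand setting or rule for reads with several matches. The members and gene lists were chosen with earlier results of these data known. Identifiers were named from a BDGP6 gene table, which matched 12862 of 15178.

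Counts of the 6 D. melanogaster libraries were tested with edgeR 4.0.16 in R 4.3.3 (TMM factors 0.882 to 1.19, quasi-likelihood test without a preset direction, Benjamini-Hochberg threshold 0.05) on the 10223 genes with a mean of at least 1 RPKM. The 3 groups shared 1 estimate of the spread (biological coefficient of variation 0.0747) without a block. Printed levels are the authors' RPKM, while fold changes carry TMM factors, so a ratio of RPKM means differs somewhat from the fitted fold. Each standard error was computed as |log2 fold change| divided by sqrt(F). Replicate pairs differed beyond sampling noise (chi-square per degree of freedom 2.03 to 13.8). The code was tested on simulated data.

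Named besides the 8 genes are Rcd-1 and Rcd-1r, up to 3 genes with the smallest p among those called per list and contrast with wildtype, and the 2 nearest genes by pattern. Alternatives were 3 other scalings, DESeq2 1.42.0, limma 3.58.1 on log2(RPKM + 1), other filters, only the compared groups, a replicate block, leaving out each library and, added after seeing the data, genome reads alone. The limma fit had no scaling beyond RPKM, so it shares the scaling by library total. Its added 1 damps changes of genes at low levels, such as stg. List genes without a match in the files were not analysed here.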

Additional observations from a re-analysis of the deposited data

How the results depend on the processing

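The 8 genes were compared under 10 alternatives and 6 fits that each left out a library. In the Caf40 knockdown the rises of CycD, CycE, Cdk1, Cdk2 and stg were called in every fit that tested them, and CycD and stg were not tested at a mean of at least 5 RPKM. Other calls in this comparison are qualified beside their values. For the Zeus knockdown the number of the 8 genes called was 2 in the main analysis, 1 with a common median, 0 with DESeq2's Wald test, 1 with limma and 1 of 6 tested at a mean of at least 5 RPKM. The shares of all genes called were 36.8%, 36.6%, 27.7%, 39.6% and 38.4% in that order. With a common median the single call was a rise of CycB3 (0.28), and with library totals CycA was called lower as well (-0.24). Leaving out a library gave 0 to 2 of the 8 genes and 1625 to 5360 of all genes in the Zeus knockdown, against 3761 in the main analysis. It gave 7 to 8 and 7443 to 8347 in the Caf40 knockdown, and 7 to 8 and 7854 to 8545 between the knockdowns.

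Signs that changed were all of values not called. For the Zeus knockdown a common median gave 0.060 for CycA, 0.032 for CycE and 0.050 for fzy, library totals gave -0.027 for CycB3 and -0.028 for CycD, and limma gave -0.014 for CycB3 and -0.0075 for CycD. Leaving out a library gave -0.19 (without wildtype replicate 2) to 0.020 (without wildtype replicate 1) for fzy. Between the knockdowns fzy was -0.17 with library totals and -0.16 with limma. It was called with DESeq2 size factors (0.29), DESeq2's Wald test (0.29), a common median (0.80), and without Caf40 knockdown replicate 1 (0.28). The cause was not tested.

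Same-numbered libraries did not deviate together over all genes (correlations 0.02 for the knockdowns, -0.04 for Zeus knockdown and wildtype, -0.05 for Caf40 knockdown and wildtype). No pairing by number was seen, but a correlation over all genes cannot exclude one that touches part of them. With the replicate number as a block, the 8 genes gave 2 calls in the Zeus knockdown, 8 in the Caf40 knockdown and 8 between the knockdowns, the last including fzy (0.21). The shares of all genes called with this block were 35.4%, 79.9% and 82.9% in that order.

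Depth limits stg, Cdk2 and CycD most, with as few as 16 reads in a library for stg, 47 for Cdk2 and 49 for CycD. Having 2 libraries per group gives little hold on the spread, and composition of the testis, driver and strain background cannot be told apart from the knockdowns in these data.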

Other observations

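Exon-junction reads were spread unevenly between the strands in the deposited counts. Among genes with introns in BDGP6 and at least 1000 reads over the 6 libraries, 2797 of 2931 on the plus strand (95.4%) had a junction read, and 887 of 3098 on the minus strand (28.6%) did. The median share of junction reads was 3.71% on the plus strand and 0 on the minus strand. CycA, CycE and Cdk1, all on the minus strand, were among the genes of this set with no junction reads. Below 1000 reads, and so outside the set, stg had 0 of 529 and CycD 43 of 916, both on the minus strand. The part this has in the order of levels between genes was not tested.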
